A study of Mus musculus with 6 samples.

Results

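Pericytes and vascular smooth muscle cells, together called mural cells, wrap the vessels of the heart, and 9 genes that mark them were followed here in macrophages sorted from heart grafts. The markers were Rgs5, Pdgfrb, Cspg4, Notch3, Mcam, Acta2, Myh11, Tagln and Des, taken by name. All 9 were measured, among 22180 genes in all, each on the brightest probe set that carries only its symbol. Treated samples (mTORi-HDL 1 to 3) were macrophages from grafts of recipients dosed with mTORi-HDL, a high-density lipoprotein nanoparticle loaded with an inhibitor of the kinase mTOR. Doses of 5 mg/kg were given on day 0, day 2 and day 5. Untreated samples (untreated 1 to 3) came from recipients that received nothing and rejected their grafts. In both groups the graft was a BALB/c heart in a C57BL/6 recipient, and cells were sorted on day 6. The ages and sexes of the animals, the sort markers, and whether a sample came from 1 animal or a pool are not stated in the labels, so p-values measure only the spread between these samples. Since no sample had received the lipoprotein without inhibitor, drug and carrier cannot be told apart.

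Each of the 6 samples was hybridised to 1 array, from 15 ng of amplified RNA, and levels are log2 intensities, on which a difference of 1 is a doubling. Defining macrophage transcripts were measured on each array. The log2 level of Cd68, a lysosomal protein of macrophages, was 9.47, 10.87 and 10.87 in mTORi-HDL samples 1 to 3, against 9.60, 9.70 and 8.78 in untreated samples 1 to 3. Csf1r, the growth factor receptor that macrophages depend on, had 5.00, 8.75 and 9.08 in mTORi-HDL samples, against 8.19, 7.54 and 7.93 in untreated samples. Adgre1, which encodes F4/80, had 4.93, 7.42 and 8.72 in mTORi-HDL samples, against 7.12, 6.05 and 6.84 in untreated samples. On mTORi-HDL 1 both Csf1r and Adgre1 were at their lowest level of the 6 arrays. T cell transcripts were bright as well. Cd3d had 8.37, 10.29 and 10.62 in mTORi-HDL samples, against 11.45, 11.31 and 11.45 in untreated samples. Summed linear intensity on untreated arrays was 8169 to 9098 for 10 T cell markers, against 3614 to 4947 for 13 macrophage markers. On mTORi-HDL arrays these sums were 1839 to 4427 and 4320 to 9726. Sums of different lists rest on different genes and probe sets, so they do not measure shares of cell types. The purity of the sorted cells was not tested. The array mTORi-HDL 1 differed most from the others. Its lower quartile over genes was 3.68 (3.12 to 3.26 on the other 5 arrays) and its upper quartile 5.10 (5.43 to 5.53). Its SD over all probe sets was 1.68, against 2.04 to 2.09. Dim genes thus tended to read higher and bright genes lower on this array. It correlated with the other 5 arrays at r = 0.708 to 0.741, where those 5 correlated with each other at 0.892 to 0.912, and it carried the highest value of the 6 arrays for 45.2% of all genes. For this reason the changes of the markers are given with and without it.

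Mural cells steady small vessels and set their width. Pericytes are recruited along new capillaries by platelet-derived growth factor B from endothelium, acting on the receptor PDGFR-beta, and endothelial Jagged1 acts on NOTCH3 to keep mural cells mature. Smooth muscle cells add a contractile apparatus of smooth muscle actin and myosin, whose genes are switched on by serum response factor and its partner myocardin at DNA elements called CArG boxes. After injury several of these genes, Acta2 and Tagln above all, are also used by myofibroblasts.

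The promoters of Rgs5, the marker with the largest difference, and Acta2, the contractile marker with the largest difference, are shown to let the pericyte and contractile genes be compared, from RefSeq on GRCm38.p6, with 250 bases before and 50 after the annotated start. The Rgs5 promoter lies at chr1:169655251-169655550 on the plus strand and the Acta2 promoter at chr19:34255324-34255623 on the minus strand. Capitals mark CArG boxes, counted when at most 1 of the 6 central letters was not A or T, and the letters TATATA.
Rgs5: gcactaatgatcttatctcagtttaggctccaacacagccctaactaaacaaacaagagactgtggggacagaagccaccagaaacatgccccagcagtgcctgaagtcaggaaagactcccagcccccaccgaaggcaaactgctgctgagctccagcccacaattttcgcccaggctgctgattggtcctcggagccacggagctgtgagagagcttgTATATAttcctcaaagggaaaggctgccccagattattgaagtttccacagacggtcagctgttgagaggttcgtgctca
Acta2: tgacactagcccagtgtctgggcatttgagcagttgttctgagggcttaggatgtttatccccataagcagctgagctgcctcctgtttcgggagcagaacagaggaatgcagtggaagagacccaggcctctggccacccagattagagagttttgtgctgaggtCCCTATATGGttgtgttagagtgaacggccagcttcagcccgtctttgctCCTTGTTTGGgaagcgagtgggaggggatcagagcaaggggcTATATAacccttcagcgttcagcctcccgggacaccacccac
The Acta2 window held 2 such CArG boxes, starting 84 and 34 bases upstream of the annotated start, and TATATA 8 bases downstream of it. The Rgs5 window held TATATA 30 bases upstream and no CArG box. Both motifs read the same on either strand, and no match overlapped another. Entries were found for 6 of the 9 markers (Rgs5, Cspg4, Acta2, Des, Notch3 and Mcam), and of these Acta2 alone held such a CArG box. Of 32851 promoters in the table, 9.98% held 1 or more CArG boxes of this kind, 1.63% held the strict form with A or T at all 6 central letters, which none of the 6 markers' windows had, and 5.67% held TATATA.

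The design sets mTORi-HDL against untreated grafts, and this comparison was made for the mural markers in RNA of the sorted cells. No detection call was made, so the presence of mural transcripts was not tested. On its brighter probe set, Rgs5 was higher on each mTORi-HDL array than on any untreated array, by 2.23-fold on average. On its dimmer probe set the groups overlapped. For the other 8 markers the 95% interval of the difference included no change, and the contractile genes Acta2, Myh11, Tagln and Des overlapped between groups. None of the 9 reached an adjusted p under 0.05 with limma, and nor did any other gene (0% of 22180).

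**Figure D1:**
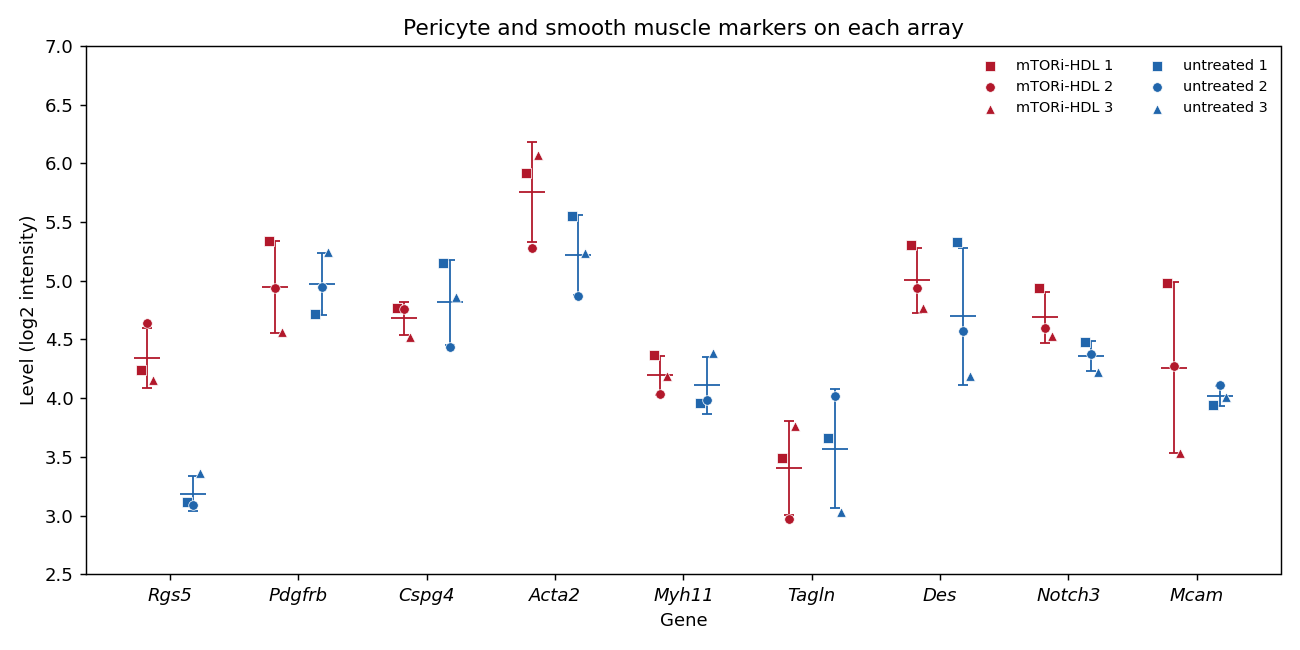
Log2 intensity of the 9 markers on each array. Symbols are the arrays numbered 1 to 3 (square, circle, triangle), with mTORi-HDL in red left of untreated in blue, and bars give the mean ± SD of 3 arrays. On the brighter Rgs5 probe set the groups are well apart (4.15 to 4.64 on mTORi-HDL arrays, 3.09 to 3.36 on untreated arrays). Between groups 7 markers overlap, and Mcam is widely spread on mTORi-HDL arrays.

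Among the pericyte genes, Rgs5 encodes a regulator that switches off G protein signalling from vascular receptors and is a classical label of pericytes. On the brighter probe set its log2 level was 4.24, 4.64 and 4.15 in mTORi-HDL samples 1 to 3, against 3.11, 3.09 and 3.36 in untreated samples 1 to 3. The groups did not overlap, and the smallest gap between them was wider than the spread within either. Means were 4.34 ± 0.26 and 3.19 ± 0.15 (SD, n = 3 each). The log2 fold change was 1.16 ± 0.27 (SE; 95% interval 0.53 to 1.78), with an unadjusted p of 0.00302 in limma's test and an adjusted p of 0.696 over all genes, so it did not pass. By unadjusted p it stood 94th of 22180 genes, and 21 of the genes up to that rank, Rgs5 among them, had a higher level in treated samples. An exact permutation test of 3 arrays against 3 gave p = 0.1, two-sided, the smallest that this design allows. Without mTORi-HDL 1 the log2 fold change was 1.21 ± 0.25 (SE; limma, adjusted p = 0.293).

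Rgs5 is also measured on a second, dimmer probe set, and there the groups overlapped. Its log2 level on that probe set was 3.42, 3.18 and 3.40 in mTORi-HDL samples 1 to 3, against 3.46, 2.94 and 2.82 in untreated samples 1 to 3. The log2 fold change was 0.26 ± 0.28 (SE; 95% interval -0.40 to 0.92; limma, adjusted p = 0.893). The probe sets thus disagree on whether the groups are apart as well as on the size of the difference. The 2.23-fold value rests on the brighter probe set alone. What each probe set reads, and from which strand, was not checked. Rgs4, which lies next to Rgs5 on chromosome 1 and encodes a related regulator, had a log2 fold change of 0.04 ± 0.35 (SE), and -0.15 without mTORi-HDL 1. Rgs4 was named here after its values were seen.

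Of 13 fibroblast markers, Col1a2, Dcn and Lum were higher on each mTORi-HDL array than on any untreated array (3 of 13, where 5.37% of all genes were), the other 10 overlapped between groups, and 0 passed limma's test after adjustment. All 13 fibroblast markers had a positive log2 fold change, with a median of 0.47 (0.08 over all genes), and their summed linear intensity was 599 to 878 on mTORi-HDL arrays, against 271 to 346 on untreated arrays. At an unadjusted p under 0.05 were 3 of them, all higher, as were 1.57% of all genes (5 when mTORi-HDL 3 was left out): Dcn and Lum, the matrix proteoglycans decorin and lumican, and Col1a2, a chain of type I collagen. Dcn had a log2 fold change of 2.22 ± 0.44 and Col1a2 of 2.19 ± 0.55 (SE). Of the defining fibroblast markers, Pdgfra had 0.47 ± 0.35 (0.20 without mTORi-HDL 1) and Col1a1 0.30 ± 0.28 (SE). The part of these transcripts in the Rgs5 difference was not tested. In such bulk samples, more cells of a type and more RNA per cell cannot be told apart.

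The pattern of the brighter Rgs5 probe set over the 6 arrays was compared with that of 174 listed genes by Pearson's r. The 5 most alike were Dcn (0.93), Lum (0.90), C1qc (0.90), Col1a2 (0.84) and Pi16 (0.83). Apart from C1qc, a chain of the macrophage complement protein C1q, all were in the fibroblast list. The other mural markers ranked lower: Notch3, the nearest, had r = 0.64 and rank 24, Acta2 had 0.49, Pdgfrb 0.06 and Tagln -0.46. These are descriptions over 6 arrays that share the group difference.

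**Figure D2:**
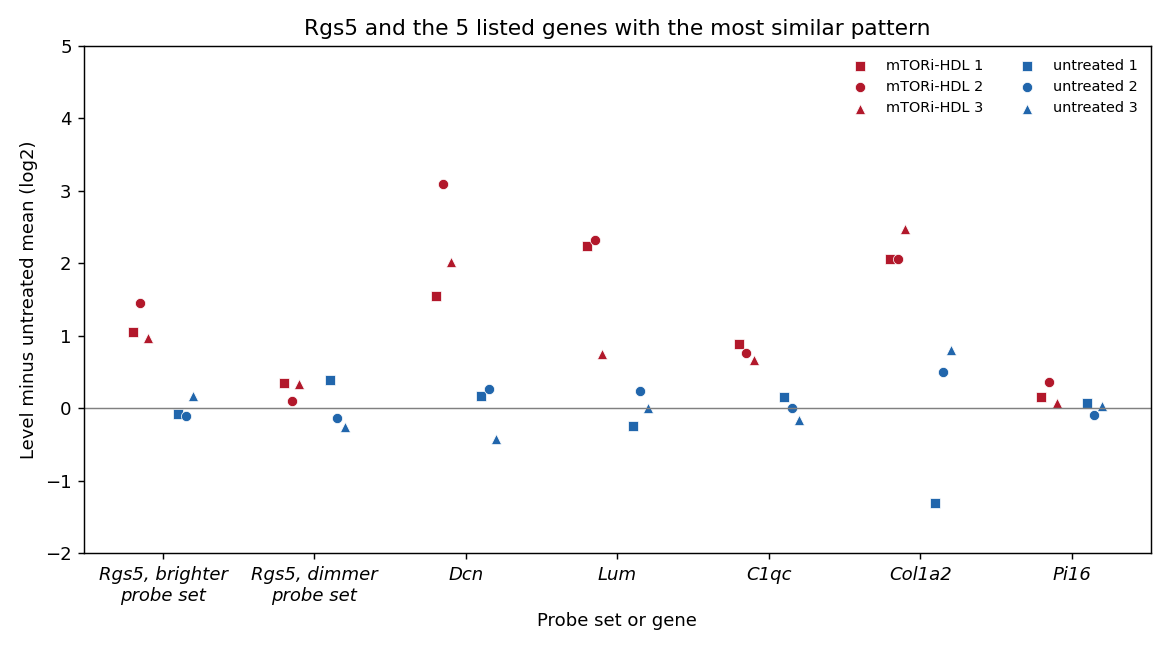
Log2 level minus the mean of the 3 untreated arrays, for both Rgs5 probe sets and the 5 listed genes most like the brighter one. Symbols are the single arrays, mTORi-HDL in red left of untreated in blue. The brighter Rgs5 probe set lies 0.97 to 1.45 above the untreated mean on the mTORi-HDL arrays, and the dimmer one overlaps between groups.

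Pdgfrb encodes PDGFR-beta, the receptor through which pericytes are recruited. Its log2 level was 5.34, 4.94 and 4.56 in mTORi-HDL samples 1 to 3, against 4.72, 4.95 and 5.24 in untreated samples 1 to 3. The groups spanned nearly the same range, with a log2 fold change of -0.02 ± 0.31 (SE; 95% interval -0.74 to 0.70). Cspg4, the NG2 proteoglycan of the pericyte surface, had 4.77, 4.76 and 4.52 in mTORi-HDL samples, against 5.15, 4.43 and 4.86 in untreated samples. The mTORi-HDL values lay inside the untreated range, and the log2 fold change was -0.13 ± 0.29 (SE; 95% interval -0.81 to 0.54).

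NOTCH3 is the Notch receptor of mural cells. Notch3 had log2 levels of 4.94, 4.60 and 4.53 in mTORi-HDL samples 1 to 3, against 4.48, 4.38 and 4.22 in untreated samples 1 to 3. It was the only marker besides Rgs5 with no overlap between groups, and the gap, between mTORi-HDL 3 and untreated 1, was narrow. Its log2 fold change was 0.33 ± 0.26 (SE; 95% interval -0.28 to 0.93; limma, adjusted p = 0.89), and 0.20 ± 0.21 without mTORi-HDL 1.

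Mcam encodes CD146, an adhesion protein of pericytes and endothelium. Its log2 level was 4.98, 4.27 and 3.53 in mTORi-HDL samples 1 to 3, against 3.94, 4.11 and 4.01 in untreated samples 1 to 3. The mTORi-HDL arrays reached both above and below the untreated ones, with an SD of 0.73 against 0.09. With mTORi-HDL 1 left out the log2 fold change turned from positive to negative: it was 0.24 ± 0.39 over all arrays and -0.12 ± 0.28 without it (SE).

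Among the contractile genes, Acta2, smooth muscle actin, showed the largest difference. It had log2 levels of 5.92, 5.28 and 6.07 in mTORi-HDL samples 1 to 3, against 5.55, 4.87 and 5.24 in untreated samples 1 to 3. Untreated 1 lay above mTORi-HDL 2, so the groups overlapped. The log2 fold change was 0.54 ± 0.33 (SE; 95% interval -0.23 to 1.31; limma, adjusted p = 0.89), and 0.46 ± 0.33 without mTORi-HDL 1. The interval reaches from a slight decrease to a 2.47-fold increase.

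Myh11, smooth muscle myosin heavy chain and the most specific of the contractile markers, had 4.36, 4.03 and 4.19 in mTORi-HDL samples 1 to 3, against 3.96, 3.98 and 4.39 in untreated samples 1 to 3. Its log2 fold change was 0.08 ± 0.27 (SE; 95% interval -0.54 to 0.71), and the highest array was an untreated one. Tagln, the actin-binding protein SM22, had 3.49, 2.97 and 3.76 in mTORi-HDL samples, against 3.66, 4.02 and 3.03 in untreated samples. Both groups scattered over about the same levels, with a log2 fold change of -0.16 ± 0.36 (SE; 95% interval -1.004 to 0.68).

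Des encodes desmin, an intermediate filament that heart muscle cells make as well as mural cells. Its log2 level was 5.31, 4.94 and 4.77 in mTORi-HDL samples 1 to 3, against 5.33, 4.57 and 4.18 in untreated samples 1 to 3. The highest value was on untreated 1, and the log2 fold change was 0.31 ± 0.36 (SE; 95% interval -0.53 to 1.15). Of 14 cardiomyocyte markers 13 had a positive log2 fold change, with a median of 0.34. Without mTORi-HDL 1, 10 were positive and 4 negative, with a median of 0.13. Over all arrays 2, the troponins Tnnc1 and Tnnt2, were higher at an unadjusted p under 0.05 in limma's test, as were 1.57% of all genes. The count was 0 under median centring, trend and robust eBayes, the replicate block and the median-brightness filter. It was 0 without mTORi-HDL 2, untreated 2 or untreated 3, and 1 without mTORi-HDL 3. With only genes above the 25th percentile of brightness it was 1. The summed linear intensity of the 14 markers was 491 to 605 on mTORi-HDL arrays, against 249 to 392 on untreated arrays. By brightness among all genes Myh6 stood at percentile 36.5, Tnni3 at 69.4 and Tnnt2 at 80.7. The part of cardiomyocyte transcripts in the Des values was not tested.

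**Figure D3:**
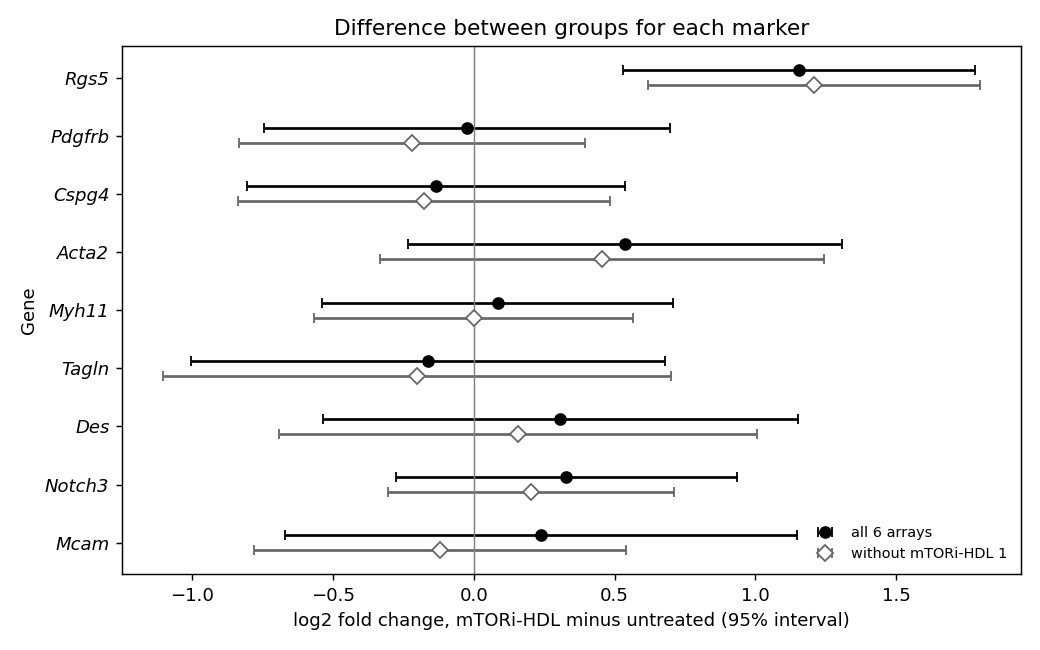
Log2 fold change of each marker, mTORi-HDL minus untreated, with its 95% interval from limma, over all 6 arrays (filled circles) and without mTORi-HDL 1 (open diamonds). The Rgs5 interval, on its brighter probe set, lies above 0 in both fits (0.53 to 1.78 over all arrays), and every other interval includes 0.

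Without mTORi-HDL 1 the log2 fold change was -0.22 ± 0.26 for Pdgfrb, -0.18 ± 0.28 for Cspg4, -0.00053 ± 0.24 for Myh11, -0.20 ± 0.38 for Tagln and 0.16 ± 0.36 for Des (SE), so Myh11 and Mcam changed sign.

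As counts, 1 of 9 markers was higher at an unadjusted p under 0.05, where 1.57% of all genes were, and 0 were lower, where 3.07% were. The same marker, Rgs5, was higher at that threshold without mTORi-HDL 1 (background 3.47% higher and 3.51% lower). Groups did not overlap for 2 of 9, both higher (Rgs5 and Notch3), where 5.37% of all genes were apart in that direction and 5.53% in the other. Without mTORi-HDL 1 these were the same 2 (background 9.75%). Without untreated 1 there were 4, with Acta2 and Des added (background 12.1%). The median log2 fold change of the markers was 0.24 (0.08 over all genes), and -0.00053 without mTORi-HDL 1 (-0.03 over all genes), so 1 library decided it. Then 4 markers were positive and 5 negative, against 6 and 3 with it. By the mean of all 6 arrays only 5 of the 9 markers were brighter than the median gene. Rgs5, Myh11, Tagln and Mcam were dimmer, although all 9 exceeded the 25th percentile of that mean. On untreated 1 and 2 Rgs5, at 3.11 and 3.09, lay below the lower quartiles of those arrays (3.26 and 3.12). On untreated 3, at 3.36, it lay above (3.23).

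Of 20 further pericyte genes measured, 0 passed limma's test and 0 were at an unadjusted p under 0.05, with 11 positive and 9 negative log2 fold changes and a median of 0.06 (0.04 without mTORi-HDL 1). When mTORi-HDL 1 was left out 1 of them, Anpep, an aminopeptidase that myeloid cells also carry, was higher at that threshold, and when mTORi-HDL 2 was left out 1 was, Ednrb. Over all 6 arrays the count was 1 under quantile normalization and 1 under array weights. Cygb, a globin of pericytes and stellate cells, had a log2 fold change of 0.59 ± 0.33, and Gucy1a1, a subunit of the nitric oxide receptor, 0.42 ± 0.27 (SE). Angpt1, the pericyte ligand of the endothelial receptor TIE2, had -0.40 ± 0.27, and Ednrb, an endothelin receptor, 0.50 ± 0.39 (SE). Groups did not overlap for Abcc9, a subunit of the pericyte potassium channel (higher), and for Foxd1 and Angpt1 (lower), where 5.37% of all genes were apart as higher and 5.53% as lower. Abcc9 had a log2 fold change of 0.38 ± 0.30, and 0.13 without mTORi-HDL 1. The channel's other subunit, Kcnj8, had -0.15 ± 0.28 (SE), and -0.07 without that array. Anpep, Abcc9, Foxd1 and Kcnj8 were named after their values were seen.

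Of 23 further contractile and smooth muscle genes 0 passed limma's test, and the median log2 fold change was 0.19 (-0.05 without mTORi-HDL 1). At an unadjusted p under 0.05 was 1, Itga1, the collagen-binding integrin alpha 1, which T cells also carry. Its log2 level was 4.56, 5.21 and 5.02 in mTORi-HDL samples 1 to 3, against 5.97, 5.48 and 5.72 in untreated samples 1 to 3, a log2 fold change of -0.79 ± 0.29 (SE; limma, adjusted p = 0.89). It was not at that unadjusted threshold without mTORi-HDL 3, untreated 1 or untreated 3, and without mTORi-HDL 1 the count was 2, with Olfr558 added (named after its values were seen). Over all 6 arrays the count was 2 under quantile normalization, 3 under array weights and 0 under the replicate block. All 10 measured T cell markers had negative log2 fold changes, with a median of -1.59 (-1.12 without mTORi-HDL 1). At an unadjusted p under 0.05 were 9 of them, as were 3.07% of all genes in that direction. Without mTORi-HDL 1 the count was also 9 (background 3.51%). It was 7 under median centring and the median-brightness filter, 8 under trend and robust eBayes, and 6 to 9 with each array left out. Summed linear intensity of these markers was 1839, 3898 and 4427 on mTORi-HDL 1 to 3, against 8169 to 9098 on untreated arrays. Their part in the Itga1 value was not tested. The myosin phosphatase subunit Ppp1r12a and the filamin Flna had negative log2 fold changes of -1.47 ± 0.77 and -1.18 ± 0.86 (SE). Their log2 levels were 4.83 and 4.93 on mTORi-HDL 1, and 7.45 to 8.33 on mTORi-HDL 2 and 3, and without mTORi-HDL 1 the log2 fold changes were -0.50 and -0.07. Kcnmb1, a subunit of the smooth muscle potassium channel, had -0.55 ± 0.30 (SE).

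Among the regulators and signals of mural cells, 0 genes had an unadjusted p under 0.05 in the main limma fit of the 6 arrays, and 0 passed adjustment. Under quantile normalization 1 PDGF gene was at that unadjusted threshold. Array weights gave 1 PDGF gene and 1 gene of the SRF and myocardin list. In the SRF and myocardin list (13 genes, median log2 fold change 0.14, or 0.07 without mTORi-HDL 1) Myocd, myocardin itself, had 0.46 ± 0.32 and its relative Mrtfa -0.43 ± 0.40 (SE). Without mTORi-HDL 1 these were 0.18 and -0.01. Among 7 PDGF genes (median 0.30), the recruiting ligand Pdgfb had 0.31 ± 0.28 and Lrp1, a receptor that works with PDGFR-beta, 0.55 ± 0.33 (SE). Lrp1 and, in the first of these lists, the transcription factor Mef2c (named after its values were seen) had an unadjusted p under 0.05 when mTORi-HDL 1 was left out, both higher. Among 14 Notch genes (median 0.14, or 0.07 without mTORi-HDL 1), the ligand Jag2 had 0.25 ± 0.25, the target Hey1 0.33 ± 0.27 and Rbpj, the DNA-binding partner of the receptors, -0.84 ± 0.56 (SE). Leaving out mTORi-HDL 1 gave 0.15 for Hey1 and -0.21 for Rbpj. Of 17 other RGS genes (median 0.18), Rgs2 had 0.77 ± 0.38 and Rgs16 -1.96 ± 1.02 (SE). Leaving out that array gave 0.51 for Rgs2, -0.62 for Rgs16 and a median of -0.01. At an unadjusted p under 0.05 was 1 RGS gene when mTORi-HDL 2 (Rgs16, lower), mTORi-HDL 3 (Rgs2, higher) or untreated 2 (Rgs8, higher, named after its values were seen) was left out.

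Endothelial cells, the neighbours of mural cells, gave a mixed picture. Of 13 endothelial markers 10 had positive log2 fold changes, with a median of 0.15. Without mTORi-HDL 1 there were 6 of 13, with a median of -0.0083. Over all arrays 1, the TGF-beta co-receptor Eng, which activated macrophages also carry, was higher at an unadjusted p under 0.05 (1.32 ± 0.46, SE). The count was 0 without mTORi-HDL 2, mTORi-HDL 3 or untreated 2, and 2 without untreated 1. Flt1, a receptor for vascular endothelial growth factor, had -0.66 ± 0.31 (SE). The summed linear intensity of the list was 261 to 372 on mTORi-HDL arrays, against 275 to 345 on untreated arrays, and the groups overlapped. The sum of 13 macrophage markers was 4320 to 9726 on mTORi-HDL arrays, against 3614 to 4947 on untreated arrays. Of these, 4 were higher at an unadjusted p under 0.05, as were 1.57% of all genes, among them C1qc (0.77 ± 0.25, SE). The count was 8 without mTORi-HDL 1 (background 3.47%), 2 without mTORi-HDL 2 or mTORi-HDL 3, 1 without untreated 3 and 1 under trend and robust eBayes. In the lists of glial (5 genes) and mesothelial markers (6 genes) 0 were at that threshold.

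**Figure D4:**
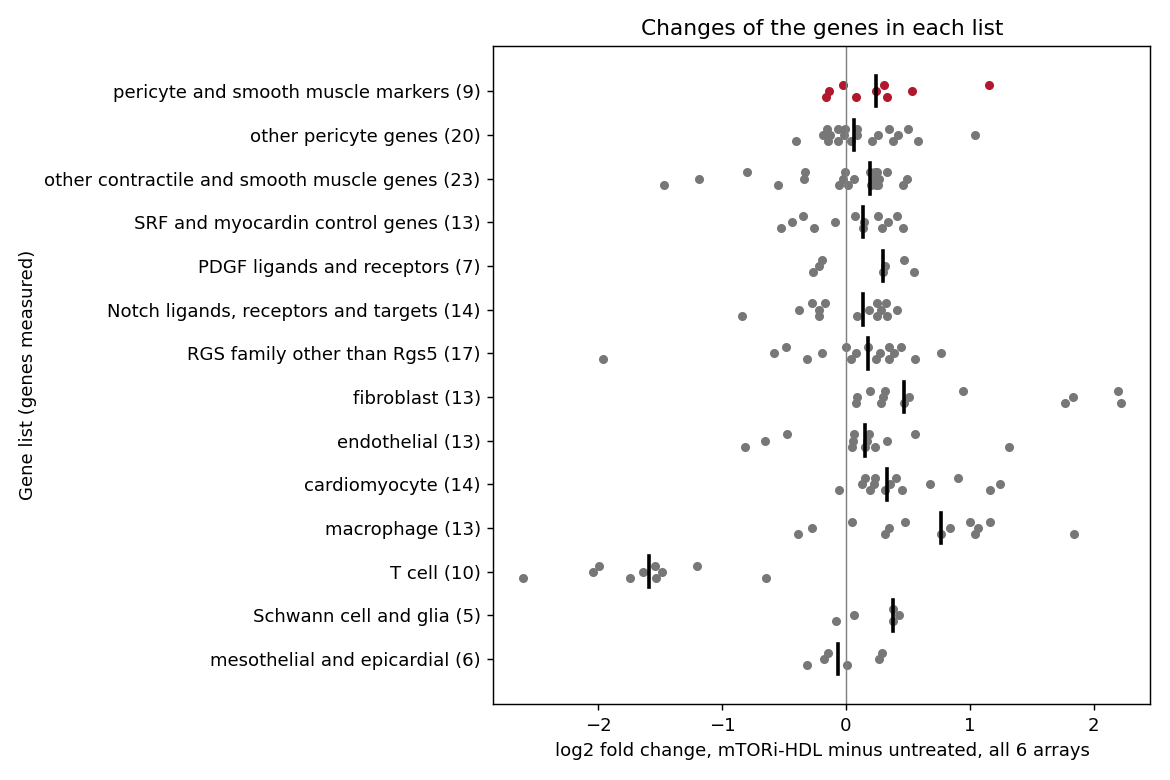
Log2 fold change of every measured gene in each list, mTORi-HDL minus untreated over all 6 arrays, with the number of genes in brackets. Points are genes, black bars are medians, and the 9 mural markers are in red. The mural markers have a median of 0.24 with Rgs5 to the right at 1.16, the fibroblast markers a median of 0.47, and the T cell markers one of -1.59.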

How the data were processed

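The deposited table holds log2 values for 41345 probe sets on 6 arrays, which per the submitters' processing notes came from RMA in Affymetrix Expression Console. Versions, genome build and probe-set filters are not given in the sources used here. Names came from the platform's annotation table (23521 had 1 symbol, 1814 several). The brightest with 1 symbol stood for each of 22180 genes, and 1 probe set that names Des beside another gene was left out. The groups were fitted in R 4.3.3 by limma 3.58.1 (lmFit, then eBayes; no covariate; residual degrees of freedom, 4), two-sided, with Benjamini-Hochberg adjustment over all genes at a threshold of 0.05. The fit was tested on simulated data with no outlying array and with changes larger than those of the markers. That test therefore does not bear on changes of the size reported here. Arrays have no read depth; their number limits precision.

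The markers and the 13 other lists (177 entries, 168 measured, 9 not analysed here) were chosen with earlier results of these data known. The lists are described by counts and medians. Up to 4 genes per list with the smallest p, and the 5 most like Rgs5, are named. Summed linear intensity adds 2 to the power of each log2 value over a list. Promoters came from RefSeq tables on GRCm38.p6. Alternatives were median centring, quantile normalization, 2 brightness filters, trend and robust eBayes, array weights, a replicate block, each array left out, and other probe-set choices.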

Additional observations from a re-analysis of the deposited data

How the results depend on the processing

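Over 15 alternatives the log2 fold change of Rgs5 stayed positive, from 0.26 (dimmer probe set) to 1.25, and its limma adjusted p ranged from 0.182 to 0.9998. It was not tested when only genes above the median brightness were kept, since it is dimmer. That filter left 5 markers, with 0 at an unadjusted p under 0.05 and 1 with groups apart. The dimmest probe set of each gene likewise gave 0 and 1. Array weights called 1 gene, H2bc12 (adjusted p = 0.02), moved the markers' median to 0.0059 and turned Mcam to -0.12. Quantile normalization turned Pdgfrb to 0.14 and Myh11 to -0.0021. Leaving out each array in turn gave 0 genes past the adjusted threshold, 1 marker at the unadjusted one and 2 to 4 with groups apart, and medians of -0.00053 to 0.38. The ranges crossed 0 for Pdgfrb (-0.22 to 0.17), Cspg4 (-0.33 to 0.035), Myh11 (-0.00053 to 0.22), Tagln (-0.43 to 0.064) and Mcam (-0.12 to 0.61), and not for Rgs5 (1.01 to 1.25), Acta2 (0.36 to 0.78), Des (0.05 to 0.62) or Notch3 (0.20 to 0.41). The causes were not tested. The labels do not say whether same-numbered arrays are paired. Deviations of same-numbered arrays correlated at -0.03 to 0.11, and 4 of 6 arrays correlated best with their own number, so pairing is not settled. With the replicate block 0 genes passed, 1183 were at an unadjusted p under 0.05 (1029 without it), and Rgs5 had a log2 fold change of 1.16 (adjusted p = 0.847). Of 390 medians and counts of the other lists under alternatives, 51 moved beyond the spread between arrays or 1.5 times.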
